A study of Rattus with 6 samples.

Results

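The genes described here are 9 controllers and carriers of cellular cholesterol: the transcription factors Srebf1 and Srebf2, their escort Scap, the retention proteins Insig1 and Insig2, the receptor-degrading ligase Mylip, the carriers Npc1 and Stard4, and the efflux pump Abca1. They were chosen by name for their roles, with earlier results of these data known. All 9 were found by symbol among the 20742 genes of the deposited read counts. Polyadenylated RNA was sequenced from H9C2, a cell line derived from embryonic rat heart, in 2 groups of 3 libraries: cells with RBM25 overexpression and cells given a control plasmid. RBM25 is an RNA-binding protein that binds U1 snRNP components and influences which splice sites are used. The labels give no time after the plasmid was given, dose, selection or clone, and do not say whether the libraries of a group came from separate cultures. The p-values therefore reflect variation among these 6 libraries only, part of which could be technical.

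SREBP proteins are made as membrane precursors in the endoplasmic reticulum. When sterols are low, SCAP carries them to the Golgi, where proteases release the part that enters the nucleus and switches on genes of sterol and fatty acid synthesis and of lipoprotein uptake. When sterols are high, the INSIG proteins hold SCAP and its cargo back, while LXR receptors, which bind oxidized sterols, switch on Abca1, Mylip and Srebf1. The level of an SREBP mRNA therefore does not report how much of the protein is cleaved, which was not measured here.

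Libraries held 25543849 to 33130256 counted reads. Rbm25 had 56.3, 55.9 and 60.1 CPM (reads relative to library size, scaled by TMM factors, which align the libraries over the bulk of their genes) in the RBM25 libraries, against 49.2, 44.5 and 45.7 CPM in the control libraries. Every RBM25 library was thus above every control library, and the log2 fold change of RBM25 overexpression over control plasmid was 0.30 ± 0.047 (SE by edgeR, adjusted p = 0.0011). The exact two-sided permutation test gave p = 0.1, the smallest that 3 libraries against 3 allow, and the edgeR call was lost without control replicate 2 (adjusted p = 0.0842). The gene listed as Rbm25l1 had 147, 114 and 105 reads in the RBM25 libraries, against 1, 1 and 3 in the control libraries. Its log2 fold change of 5.97 ± 0.33 (SE by edgeR, adjusted p = 7.27e-12) was the highest of all tested genes. Where its reads come from was not tested. RBM25 replicate 3 stood apart: its counts differed from those of the other 2 RBM25 libraries with a chi-square of 6.22 and 4.79 per degree of freedom, against 3.21 to 3.48 for the other 4 replicate pairs. Of 14 listed genes of striated muscle and heart, 9 were above 1 CPM, led by the troponin gene Tnnc1, while the defining heart genes Tnni3, Myh7 and Ryr2 were below 0.1 CPM. The summed level of this list was 1047 to 1098 CPM in RBM25 libraries and 1009 to 1022 CPM in control libraries, so the sum was higher in every RBM25 library. Tnnc1 (mean 444 against 421 CPM) and Casq2 (353 against 329 CPM) were its largest parts. These 2 genes, Mef2c and Myh6 were higher in every RBM25 library, Myh6 at a mean of only 0.487 against 0.284 CPM. Des, Tnnt2, Myod1, Myog, Nkx2-5 and Gata4 overlapped between the groups. Of all tested genes, 16.2% had no overlap between the groups in either direction. No gene of the list was called. The part of the higher sum in the results that follow was not tested. Summed hepatocyte markers reached 0.424 CPM at most in RBM25 libraries and 0.42 CPM in control libraries. Adipocyte markers reached 0.465 and 0.353 CPM at most in RBM25 and control libraries, and endothelial markers 0.884 and 0.864 CPM. Leukocyte markers summed to 37.8 to 42.7 CPM in RBM25 libraries and 38.6 to 41.9 CPM in control libraries, mostly Cd14, and epithelial markers, nearly all Krt8, to at most 29.8 CPM in RBM25 libraries and 28.7 CPM in control libraries.

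The libraries with RBM25 overexpression were set against those with control plasmid to ask whether the 9 genes changed in level. None of the 9 passed the threshold of an adjusted p under 0.05 over all 12882 genes tested, which 0.404% of all tested genes passed. At an unadjusted p under 0.05 there was 1, Srebf2, where 11.2% of all tested genes had such a p. DESeq2 called none of the 9 either. Of the 9 genes, 8 had a log2 fold change below 0, as did 51.2% of all tested genes, and the median was -0.048, against -0.0021 over all tested genes. All 9 passed the filter on low counts. In bulk RNA of this kind, fewer cells of a type and less RNA per cell cannot be told apart.

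**Figure D1:**
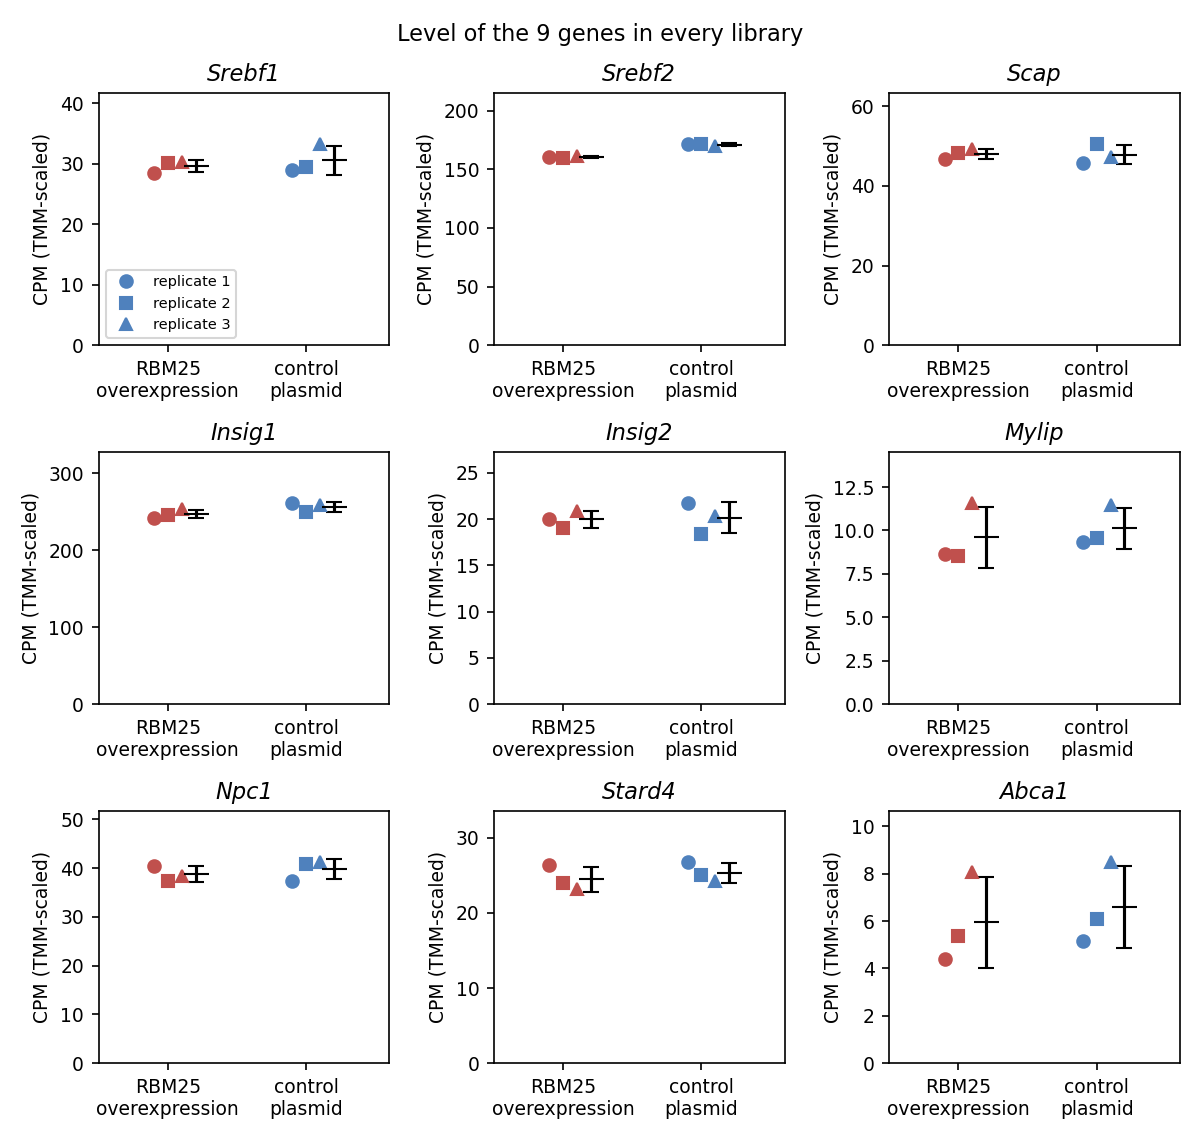
Level of the 9 genes in every library, in TMM-scaled CPM on axes that start at 0; coloured symbols are libraries (RBM25 overexpression on the left, control plasmid on the right), and the black bar with whiskers is the mean ± SD (n = 3). The groups are apart for Srebf2 and overlap for the other 8 genes, and Abca1 and Mylip have 1 high library in each group.

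Levels can be compared between genes only per length, and in FPKM, as the authors deposited them, the 9 genes covered about 2 orders of magnitude. Insig1, a retention protein of the endoplasmic reticulum whose gene is a classical SREBP target, was the most abundant, at 60.1 ± 1.84 FPKM in RBM25 libraries and 62.5 ± 1.63 FPKM in control libraries (SD, n = 3), which placed it at or above 90.6% of tested genes in the controls. Srebf2, the SREBP gene best known for driving cholesterol synthesis, came next at 26.6 ± 0.343 FPKM in RBM25 libraries and 28.3 ± 0.133 FPKM in control libraries. Scap followed at 10.4 ± 0.35 FPKM in RBM25 libraries and 10.3 ± 0.514 FPKM in control libraries. Npc1, Srebf1, Insig2 and Stard4 lay between 4.23 and 7.05 FPKM on average. Mylip was at 2.34 ± 0.436 FPKM in RBM25 libraries and 2.46 ± 0.289 FPKM in control libraries. Abca1 was last at 0.527 ± 0.172 FPKM in RBM25 libraries and 0.58 ± 0.154 FPKM in control libraries, at or above only 16.1% of tested genes in the controls. The order of the means was the same in both groups. In control libraries the ranges of the neighbours Npc1 and Srebf1 overlapped, as did those of Srebf1 and Insig2, while in RBM25 libraries no neighbouring ranges overlapped.

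Of the transcription factors, Srebf2 was the one whose libraries separated by group. It had 160.9, 159.2 and 161.5 CPM in the RBM25 libraries, against 171.5, 171.7 and 169.7 CPM in the control libraries. The highest RBM25 library was below the lowest control library, a separation that 7.94% of all tested genes showed in this direction and 16.2% in either. The other 8 genes overlapped between the groups. The spread within groups was small, with the highest library 1.01 times the lowest in each group. Among the 913 tested genes within 0.5 log2 CPM of its level, 6.46% had a smaller ratio among the RBM25 libraries and 5.7% among the control libraries. Its log2 fold change came to -0.091 ± 0.031 (SE by edgeR, adjusted p = 0.229), a change of -6.1% with a 95% interval of -10.1% to -1.86% that is not adjusted for the number of genes tested. The difference did not pass the threshold. Without any 1 library it lay between -0.095 and -0.082, and without RBM25 replicate 3 its adjusted p was 0.116.

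Srebf1, whose products drive fatty acid genes and which LXR receptors also induce, was at 28.4, 30.1 and 30.4 CPM in the RBM25 libraries, against 29.0, 29.4 and 33.3 CPM in the control libraries. The groups overlapped, with control replicate 3 the highest of all. The estimated log2 fold change was -0.048 ± 0.059 (SE by edgeR, adjusted p = 0.815), with a 95% interval of -0.17 to 0.074. Without control replicate 3 it was 0.023. Srebf2 stood at 4.31 ± 0.17 times the FPKM of Srebf1 in RBM25 libraries and at 4.47 ± 0.362 times in control libraries (SD, n = 3), and this ratio did not differ beyond the spread (exact two-sided permutation test, p = 0.6, smallest possible 0.1).

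Of the genes whose proteins move or hold back the SREBPs, none passed the test and each overlapped between the groups. Scap, the escort and sterol sensor, ranged from 46.7 to 49.3 CPM in RBM25 libraries and from 45.8 to 50.6 CPM in control libraries. Its log2 fold change was 0.0031 ± 0.047 (SE by edgeR, adjusted p = 0.99), and the 95% interval of the change ran from -6.23% to 7.1%. Its sign depended on single libraries, being below 0 without RBM25 replicate 3, control replicate 1 or control replicate 3 (-0.015, -0.025 and -0.0046).

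Insig1 had 242.3, 245.7 and 253.7 CPM in the RBM25 libraries, against 261.8, 249.6 and 259.0 CPM in the control libraries. The groups overlapped, RBM25 replicate 3 lying above control replicate 2, although the other 2 RBM25 libraries lay below every control library. The fitted log2 fold change was -0.055 ± 0.033 (SE by edgeR, adjusted p = 0.561; 95% interval -0.12 to 0.012). Insig2, the retention protein whose gene is not itself a classical SREBP target, ranged from 19.1 to 20.9 CPM in RBM25 libraries and from 18.4 to 21.7 CPM in control libraries, so that the RBM25 libraries lay inside the range of the controls. Its log2 fold change was -0.012 ± 0.069 (SE by edgeR, adjusted p = 0.971), and the value was above 0 without RBM25 replicate 2 (0.022) or control replicate 1 (0.045). Per length, Insig1 was 10.8 ± 0.364 times as abundant as Insig2 in RBM25 libraries and 11.2 ± 0.658 times in control libraries (SD, n = 3; exact two-sided permutation test of the log2 ratio, p = 0.7, smallest possible 0.1).

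**Figure D2:**
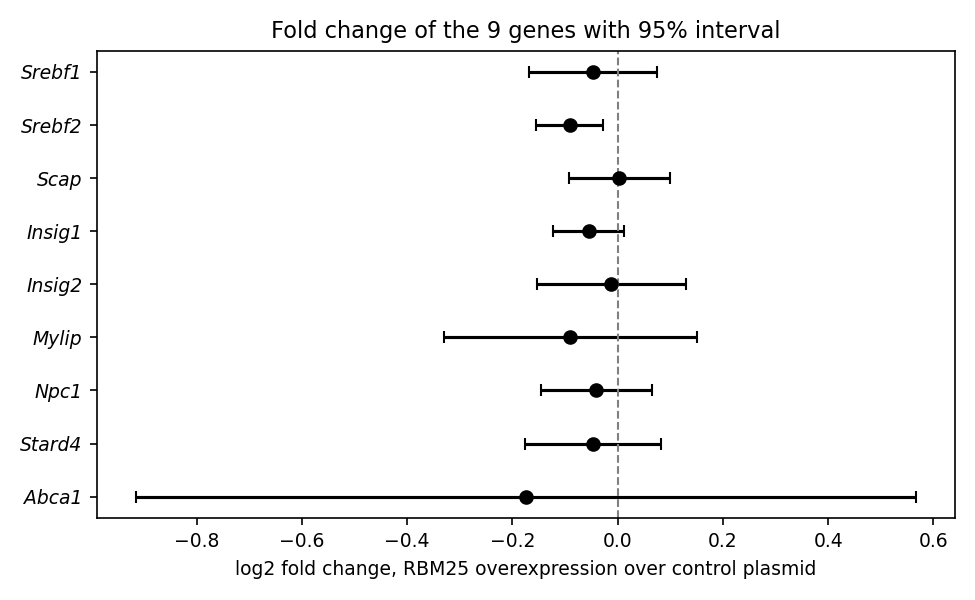
The log2 fold change of RBM25 overexpression over control plasmid for the 9 genes (points, edgeR) with 95% intervals not adjusted for the number of genes tested (bars). The interval of Srebf2 lies below 0, those of the other 8 genes include 0, and that of Abca1 is the widest, from -0.92 to 0.57.

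Among the genes of cholesterol transport inside the cell, Npc1, the membrane protein that moves cholesterol out of lysosomes, had 40.5, 37.3 and 38.4 CPM in the RBM25 libraries, against 37.4, 40.8 and 41.3 CPM in the control libraries. Stard4, a soluble carrier of sterols between membranes and a known SREBP target, had 26.3, 23.9 and 23.1 CPM in the RBM25 libraries, against 24.2 to 26.8 CPM in the control libraries. Both genes overlapped between the groups. On the log2 scale the fold change was -0.04 ± 0.052 for Npc1 and -0.046 ± 0.063 for Stard4 (SE by edgeR, adjusted p = 0.822 and 0.838). The 95% interval of the change ran from -9.66% to 4.66% for Npc1 and from -11.5% to 5.93% for Stard4.

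Mylip, also called IDOL, encodes a ubiquitin ligase that sends lipoprotein receptors to degradation. It had 8.67, 8.53 and 11.6 CPM in the RBM25 libraries, against 9.34, 9.54 and 11.5 CPM in the control libraries. In each group replicate 3 was the high library and the other 2 lay close together, so the groups overlapped through RBM25 replicate 3 alone. The estimate was a log2 fold change of -0.09 ± 0.11 (SE by edgeR, adjusted p = 0.823; 95% interval -0.33 to 0.15). It was -0.24 without RBM25 replicate 3 (adjusted p = 0.215) and 0.017 without control replicate 3.

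Abca1 encodes the pump that passes cholesterol from cells to apolipoprotein acceptors. It had 4.4, 5.37 and 8.08 CPM in the RBM25 libraries, from 145, 170 and 226 reads, against 5.14, 6.1 and 8.5 CPM in the control libraries, from 131, 175 and 263 reads. The highest library was 1.84 times the lowest in the RBM25 group and 1.65 times in the control group. Of the 1061 tested genes within 0.5 log2 CPM of its level, 99.4% had a smaller ratio among the RBM25 libraries, and the same percentage had a smaller ratio among the control libraries. The spread within each group thus exceeded the difference between the groups. For these groups the log2 fold change was -0.17 ± 0.30 (SE by edgeR, adjusted p = 0.884), and the 95% interval, from -47% to 48.1%, was too wide to detect changes of either sign inside those bounds. The value was -0.45 without RBM25 replicate 3 (adjusted p = 0.168), 0.0098 without RBM25 replicate 1 and 0.065 without control replicate 3.

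Abca1 and Mylip were high in the same libraries, and Stard4 was low where they were high. Over the 6 libraries, each taken as the deviation of log2 CPM from its group mean, Pearson's r was 0.94 between Abca1 and Mylip (Spearman's rho 0.83), 0.83 between Abca1 and Srebf1 (rho 0.83) and -0.90 between Abca1 and Stard4 (rho -0.94). These are the extremes for Abca1 among 36 pairs of the 9 genes, and they describe 6 points that share library depth and preparation. Of the 12873 other tested genes, 1.72% had a correlation with Abca1 at least as high as that of Mylip, 6.97% one at least as high as that of Srebf1, and 4.09% one at least as low as that of Stard4. The replicate 3 libraries of both groups were the high ones for Abca1 and Mylip. Over 7527 genes the deviations of these 2 libraries correlated at 0.055. The labels do not say whether libraries with the same replicate number belong together. The part of library preparation in these deviations was not tested.

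**Figure D3:**
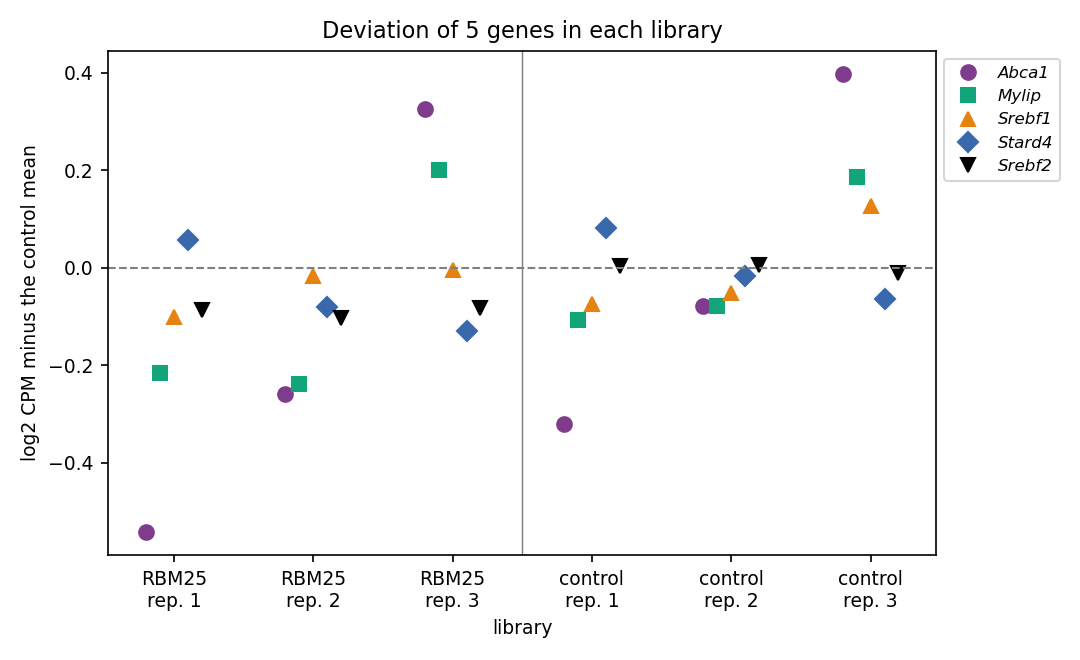
Deviation of log2 CPM from the control mean for 5 of the 9 genes in each library, with RBM25 libraries on the left and control libraries on the right. Abca1 runs from -0.54 to 0.33 in RBM25 libraries and from -0.32 to 0.40 in control libraries, Mylip is high in the same replicate 3 libraries, and Srebf2 lies between -0.10 and -0.082 in RBM25 libraries and between -0.011 and 0.0062 in control libraries.

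The mean deviation of the 9 genes from the control mean was -0.11, -0.10 and 0.037 on the log2 scale in the RBM25 libraries, against -0.047, -0.030 and 0.078 in the control libraries. The groups overlapped, and Abca1 and Mylip gave the largest deviations. Without RBM25 replicate 3 all 9 genes had a log2 fold change below 0, with a median of -0.065. None was called there, although the number of called genes over the whole table was 352. Without control replicate 3, 6 of the 9 were below 0, with a median of -0.0046. It was 7 of 9 without RBM25 replicate 1 or 2 (medians -0.020 and -0.027). Without control replicate 1 or 2 it was 8 of 9 (medians -0.080 and -0.074). The genes most like the mean of the 9 across the 6 libraries were sought by Pearson's r of log2 CPM among 7367 well-expressed genes. They were Auh (r = 0.99), Tbc1d9b (0.99), Fam171a2 (0.98), Shb (0.98) and Smg6 (0.98). Their log2 fold changes lay between -0.073 and -0.029, none was called, and 104 genes had an r of at least 0.9, so these 5 are the top of a large set over few points.

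For genes that SREBPs are known to switch on, most differences were below 0 and small. The gene lists from here on were chosen with earlier results of these data known. Their counts beside the shares of all tested genes are therefore description and no test. Of 21 sterol synthesis enzymes tested, 2 fell past the threshold over all genes (0.0466% of all tested genes did), none rose (0.357% of all tested genes did) and 19 did not pass. Their median log2 fold change was -0.091, 20 of 21 values were below 0 (51.2% of all tested genes were), and 13 enzymes had no overlap between the groups in the lower direction (7.94% of all tested genes did so). Mvd, which makes isopentenyl diphosphate in the mevalonate pathway, had 186.5, 191.1 and 187.2 CPM in the RBM25 libraries, against 217.2, 221.9 and 206.9 CPM in the control libraries. All 3 RBM25 libraries were below all 3 control libraries, and Mvd fell by 0.19 on the log2 scale (SE 0.033; edgeR, adjusted p = 0.0043). The count of 2 called enzymes was 9 without RBM25 replicate 3, 1 without RBM25 replicate 1, RBM25 replicate 2 or control replicate 1, and 0 without control replicate 2. Over the whole table these fits called 352, 58, 35, 53 and 5 genes, in that order, against 52 with all libraries. The Mvd call was itself lost without control replicate 2 (adjusted p = 0.162).

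Of 16 listed lipid genes linked to SREBP-1, mainly of fatty acid synthesis and desaturation, 14 were tested. None of the 14 was called (0.404% of all tested genes were). Their median log2 fold change was -0.12, 13 of 14 values were below 0 against 51.2% of all tested genes, and 7 genes had no overlap between the groups in the lower direction against 7.94% of all tested genes. Fads2, the delta-6 fatty acid desaturase, had the smallest p. Its level was 429.3, 464.2 and 478.6 CPM in the RBM25 libraries, against 495.5, 511.3 and 511.3 CPM in the control libraries, with a log2 fold change of -0.15 ± 0.035 (SE by edgeR, adjusted p = 0.0568). Every RBM25 library was below every control library. Fads2 passed the threshold with DESeq2 (adjusted p = 0.0497), without a filter on low counts (edgeR, adjusted p = 0.00183) and without RBM25 replicate 3 (edgeR, adjusted p = 1.25e-04). Dropping any other single library left Fads2 short of the threshold (edgeR, adjusted p from 0.101 to 0.432). With RBM25 replicate 1 dropped, its log2 fold change was -0.10 (edgeR, adjusted p = 0.243). Fads2 also missed the threshold with RLE factors (edgeR, adjusted p = 0.0572) and in the FPKM fits (limma, adjusted p from 0.407 to 0.633). Without RBM25 replicate 3, 7 genes of this list were called, among 352 of 13098 genes in that fit.

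The machinery that cleaves, transports and degrades SREBPs and their retention proteins had 22 tested genes. None was called (0.404% of all tested genes were). Of the 22, 4 had no overlap between the groups in the lower direction and 2 in the higher (16.2% of all tested genes in either). In this list 14 values were below 0 (51.2% of all tested genes were) and 8 above, and its median of -0.009 showed little shift. Its smallest p belonged to Sec24d, a cargo subunit of the COPII coat, at 90.4 ± 0.817 CPM in RBM25 libraries and 98.2 ± 3.12 CPM in control libraries (SD, n = 3; log2 fold change -0.12 ± 0.036 SE, edgeR, adjusted p = 0.145). Of 21 genes of lipoprotein uptake and lysosomal cholesterol export, 1 fell past the threshold, as 0.0466% of all tested genes did, and 20 did not pass. That list had a median of -0.029, with 13 values below 0, and its call was lost without RBM25 replicate 2, control replicate 1, control replicate 2 or control replicate 3.

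Among 11 tested genes of efflux, esterification and LXR signalling, none was called (0.404% of all tested genes were), 8 values were below 0 and the median was -0.063. Without RBM25 replicate 3, 1 of the 11 was called, among 352 of 13098 genes in that fit. The other 5 genes of that list were not tested, 4 of them for too few reads. Rxra, the retinoid X receptor that pairs with LXR, had the smallest p. It was at 39.0, 39.5 and 38.9 CPM in the RBM25 libraries, against 43.2, 43.7 and 43.8 CPM in the control libraries, with a log2 fold change of -0.16 ± 0.046 (SE by edgeR, adjusted p = 0.135). The groups did not overlap, but the difference did not pass the threshold. Whether any of these lists differs from the 9 genes was not tested.

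**Figure D4:**
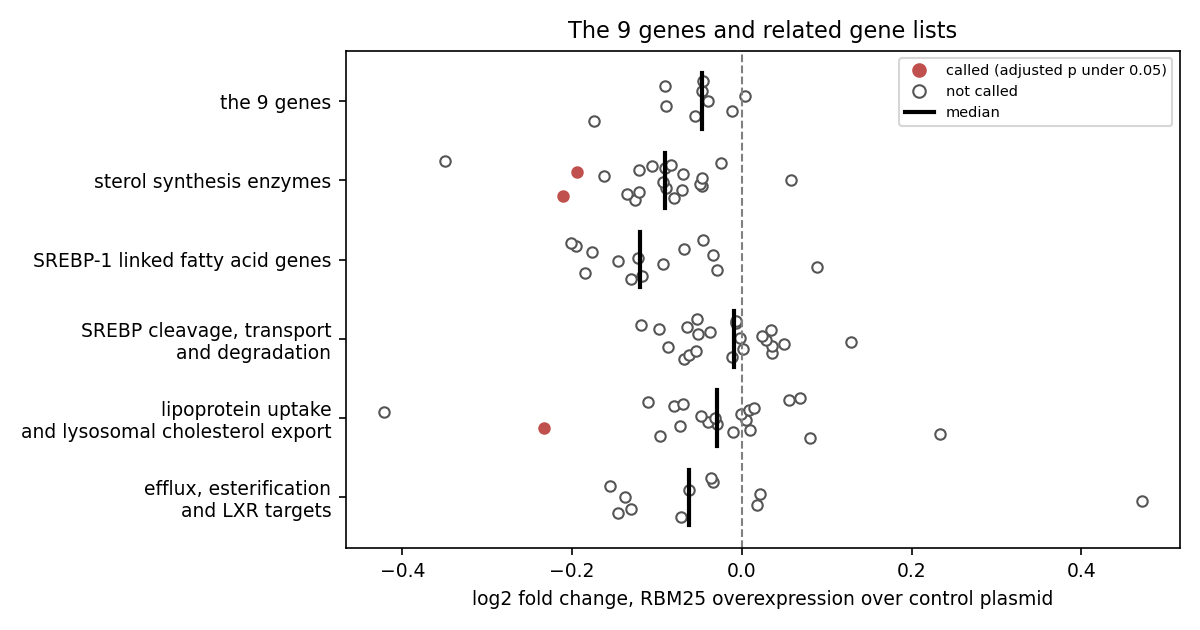
The log2 fold change of RBM25 overexpression over control plasmid for the 9 genes and for each tested gene of 5 related lists (circles, filled where the edgeR adjusted p was under 0.05), with the median of each list as a black bar. The medians are -0.048 for the 9 genes, -0.091 for sterol synthesis, -0.12 for fatty acid genes, -0.009 for SREBP cleavage and transport, -0.029 for uptake and export, and -0.063 for efflux.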

How the data were processed

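The authors deposited whole-number read counts per gene, not normalized, and FPKM values rounded to 2 decimals (20395 genes). The submitters' processing notes name HISAT2, DESeq2 and the build mRatBN7.2. Not given in the sources used here are their versions, the read counter, the annotation, the gene lengths behind FPKM and the use of strand in counting, so genes overlapping on opposite strands are uncertain.

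The main test was edgeR 4.0.16 (R 4.3.3) on the 12882 genes that filterByExpr kept at a minimum count of 10. It used TMM scaling and the robust quasi-likelihood F-test on group alone, with Benjamini-Hochberg adjustment over all tested genes and a threshold of 0.05. SE is the size of the log2 fold change divided by the square root of F. Alternatives were RLE factors, DESeq2 1.42.0, no filter, a replicate block, each library left out, and limma 3.58.1 on log2(FPKM + 0.1) or log2(FPKM + 1), with and without a mean FPKM filter of 0.5.

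All replicate pairs differed by more than sampling noise. Same-numbered libraries of the 2 groups had deviations correlated at 0.26, -0.25 and 0.055 over 7527 genes. RBM25 replicate 2 and control replicate 3 reached 0.24. With 3 libraries in each group these values cannot exclude pairing. The main fit did not treat same-numbered libraries as pairs. The 9 genes and 5 lists were chosen with earlier results of these data known. Beyond the 9 genes and Rbm25, the rule named up to 3 called genes per list, or the 1 with the smallest p, and the 5 genes most like the mean of the 9 among those whose log2 CPM averaged 4 or more; some genes it named are not reported here. Intervals are 95%, are for the difference between the groups and use the edgeR SE. They reflect variation among these libraries only.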

Additional observations from a re-analysis of the deposited data

How the results depend on the processing

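No setting called any of the 9 genes, and the sign of all 9 was the same in the fits with RLE factors, DESeq2, no filter, the replicate block and FPKM values. Leaving out each library in turn gave log2 fold changes from -0.45 to 0.065 for Abca1, -0.24 to 0.017 for Mylip, -0.081 to 0.023 for Srebf1, -0.071 to 0.045 for Insig2 and -0.025 to 0.045 for Scap, which changed sign, and from -0.095 to -0.082 for Srebf2, -0.074 to -0.038 for Insig1, -0.08 to -0.01 for Npc1 and -0.10 to -0.0038 for Stard4, which did not. The cause was not tested. The ratios of FPKM moved from -0.087 to -0.0024 (Insig1 to Insig2) and from -0.12 to -0.0097 (Srebf2 to Srebf1) as log2 differences.

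The count of called genes, 52, depended more on the settings: 205 without a filter, 436 with the replicate block, 5 to 352 with 1 library left out, and on FPKM 3 and 2 with pseudocounts of 0.1 and 1 and 6 with no filter. Rbm25 was 0.27 to 0.35 with 1 library left out and was not called on FPKM (0.30, 0.28 and 0.30; limma adjusted p = 0.211, 0.239 and 0.381). Called genes of the sterol list numbered 6 without a filter, 9 with the replicate block, 0 in the 3 FPKM fits and 0 to 9 with 1 library left out. For fatty acid genes the counts were 1 with DESeq2, 3 without a filter, 7 with the block and 0 to 7. For cleavage and transport 1 was called with the block and 0 otherwise, for uptake 0 on FPKM and 0 to 1, and for efflux 1 without a filter, 2 with the block and 0 to 1. With the replicate block, the log2 fold change of Srebf2 was -0.091 (adjusted p = 0.0598 by edgeR) and that of Abca1 -0.15 with an SE of 0.11 (adjusted p = 0.566 by edgeR). Fads2, Sec24d and Rxra, which the main fit did not call, were called with the block (adjusted p = 9.55e-06, 0.0214 and 0.0384 by edgeR). The labels do not say whether libraries with the same replicate number belong together. Of the 9 genes Abca1 had the fewest reads, 131 to 263 in a library, and so the largest counting error relative to its level. Of the 1061 tested genes at a like level, 99.4% had a smaller ratio of highest to lowest library in each group. The part of counting error in the spread of Abca1 was not tested.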
